A study of Gallus gallus with 24 samples.

Results

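Interdigital region 3 of the chicken hindlimb was compared between embryos incubated for 7 days plus 11 h and embryos incubated for 7 days plus 6 h, with 6 RNA-seq libraries at each time, or 12 of the 24 libraries of a time course that also holds 7 days plus 4 h and plus 8 h. Membership follows the time given in each sample title. The embryos spanned Hamburger-Hamilton stages 30 to 31, and the labels name no treatment, genotype or strain beyond the incubation time. Libraries were made from 180 ng of total RNA by Lasy-Seq, a method that tags each sample with a barcode during reverse transcription so that many can be sequenced together. The labels do not say whether a library came from 1 embryo or from pooled embryos, and the p-values given here therefore reflect only how far these libraries spread, which may be technical.

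The interdigit is the mesenchyme between the forming digits. In the chick hindlimb it regresses by programmed cell death under bone morphogenetic protein (BMP) signals from the interdigital tissue, while fibroblast growth factors from the overlying apical ridge and retinoic acid modulate its survival. Oxidative stress builds up in the regressing interdigit, and the title of the study concerns how BMP signalling sets the production and removal of reactive oxygen species there. The comparison of 11 h with 6 h addresses which transcripts change within a few hours of this period. The files give genes only by Ensembl identifier, which the sources used here do not pair with names. The BMP, oxidative stress, cell death and cell type lists therefore could not be read, and the tissue could not be checked against its markers.

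Most of the transcript profile was shared by both times. The 50 transcripts with the highest mean at 11 h were the same 50 as at 6 h. Of the leading 500 at each time, 470 were shared, which is 94% of each list. Over the 530 transcripts in either of those lists, 19 differed by more than 1.5-fold in either direction. The 10 most abundant transcripts took 15.5% ± 0.835 of the reads at 11 h and 15.9% ± 1.48 at 6 h (SD over 6 libraries each; exact permutation test, two-sided, p = 0.571). These are shares of each library's own 10 leading transcripts, not of 1 fixed set of 10. The shares did not differ between the times beyond the spread between libraries. Of the 530 transcripts, 95 had an unadjusted p under 0.05 (limma), and 0 passed after adjustment. This is a larger share than over all 13783 genes tested, where 1111 (8.06%) had an unadjusted p under 0.05 (limma). Abundant transcripts also had the smallest standard errors, and their share of small p-values depended on the scaling (both given below). The larger share therefore does not show that they changed more. In bulk tissue, fewer cells of a type and less RNA per cell cannot be told apart.

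Libraries at the 2 times differed in number and in depth. The deposited values are natural logs of CPM + 1, with CPM the reads of a gene per 1000000 reads of its library, and whole reads could be recovered from them. Depth averaged 5163777 ± 1181593 reads at 11 h and 3365226 ± 2290660 at 6 h (SD over 6 libraries each; exact permutation test, two-sided, p = 0.113, where 0.00216 is the smallest p this design allows). Replicate 5 at 6 h held 747982 reads and was the shallowest of the 12. Library numbers ran from 267 to 283 at 11 h. At 6 h, replicate 1 was number 266 and the other 5 libraries ran from 286 to 294. Over all 24 libraries, numbers up to 283 are called the lower range and those from 285, a library at 8 h, the upper one. The cut was made here, since the labels do not say what the number stands for. Incubation time and library number are confounded in 11 of the 12 libraries, so for these their parts in any difference cannot be told apart.

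Genes with a read numbered 17535 ± 751.1 at 11 h and 16526 ± 2117 at 6 h (SD over 6 libraries each; exact permutation test, two-sided, p = 0.303). Brought to a common depth of 690847 reads, the libraries gave 14116 ± 467.5 genes at 11 h and 14262 ± 826.3 at 6 h (p = 0.714, same exact permutation test). Of genes read in all 6 libraries at 11 h, 4 had no read at 6 h. They were weakly expressed, at a mean of 0.457 to 1.17 CPM at 11 h, from 14 to 37 summed reads, and 0 reads among the 20191356 at 6 h allow a level of up to 0.149 CPM (3 reads over the group; counting error only). In the opposite direction there were 0 genes, but a read in all 6 libraries is harder to reach at 6 h. Replicate 5 there held 747982 reads, against at least 3511365 in each library at 11 h. With a read required in at least 4 libraries, 57 of the 30108 genes had none at 6 h and 31 had none at 11 h. The largest number of summed reads of any gene seen at 1 of the times alone was 55, for a gene read at 11 h.

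**Figure D1:**
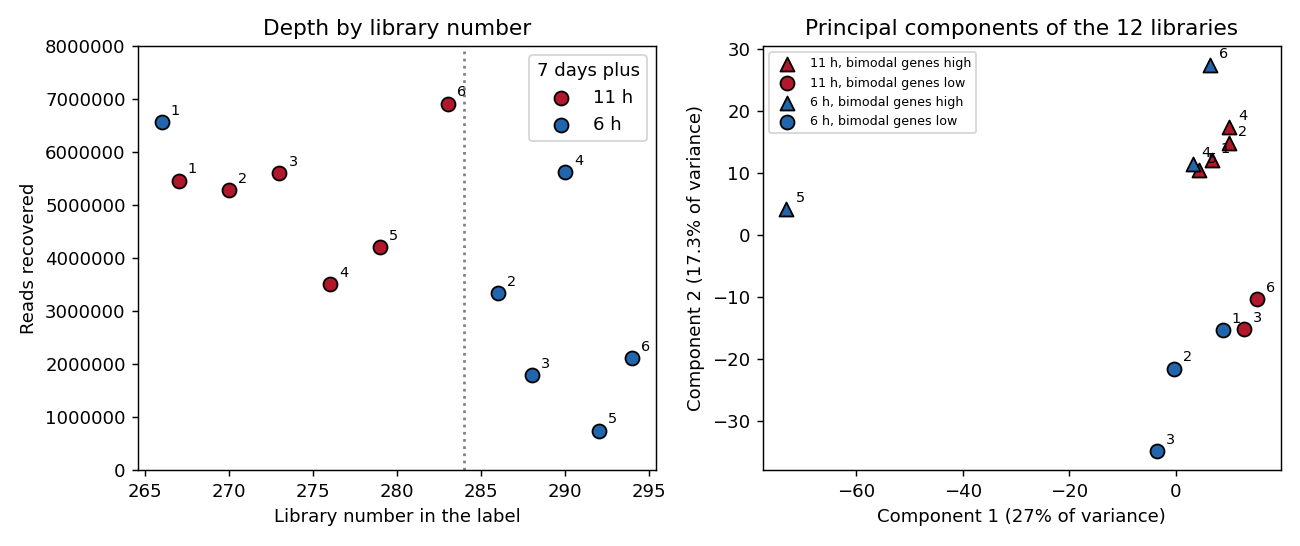
Left, recovered reads by the library number in the label for the 6 libraries at 11 h (red) and the 6 at 6 h (blue), with replicate numbers; the dotted line parts the lower from the upper numbers. Right, the leading 2 principal components of log2(CPM + 1) over 7209 genes of at least 10 CPM; replicate 5 at 6 h lies at -73.1 on the first, and the second divides libraries with high from those with low bimodal genes.

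The larger divisions among the 12 libraries did not follow time. The first principal component, with 27% of the variance over the 7209 genes averaging 10 CPM or more, placed replicate 5 at 6 h at -73.1 and the other 11 libraries between -3.61 and 15.2. On the second component, with 17.3%, libraries lay from 4.15 to 27.3 or from -34.9 to -10.3. This division matched that of a set of 26 bimodal genes, chosen because the libraries part at a gap of at least 1.5 log2 units, with 6 or more of the 24 libraries on each side, in the same place for each of them. The component was computed with these genes included. With them left out, the second component held 13.8% and the division remained, but with an overlap. Libraries with a high level of the set lay from 1.04, in replicate 5 at 11 h, to 28.04. Those with a low level lay from -39.45 to -4.09, except for replicate 6 at 11 h, at 2.80. The mean log2 level of the set was high in 4 of 6 libraries at 11 h, at 6.34 to 6.52, and in 3 of 6 at 6 h, at 5.91 to 6.45. In the remaining libraries it was 1.46 to 1.72 at 11 h and 1.75 to 2.09 at 6 h. The 26 genes differed between 11 h and 6 h by 0.30 to 1.06 on the log2 scale, with 1 more library at the high level at 11 h than at 6 h. Of them, 0 reached an unadjusted p under 0.05 (limma), against 663 (9.2%) of the 7209 genes. They were chosen for a wide gap, and both times hold libraries on each side of it. Their spread within a time is therefore wide by choice, and the count of 0 does not show an absence of change.

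Libraries at 11 h resembled each other more than those at 6 h did. Pearson correlations of log2 levels over the 7209 genes were 0.911 to 0.953 among the 15 pairs at 11 h, with a median of 0.933, and 0.807 to 0.935 among the 15 pairs at 6 h, with a median of 0.886. Between the times the median was 0.908 over 36 pairs. Within a group, the median SD of the log2 level was 0.308 at 11 h and 0.442 at 6 h, and the SD was larger at 6 h for 76.3% of these genes. Without replicate 5 at 6 h the median SD at 6 h was 0.383 and the median correlation within 6 h was 0.906. These are descriptions of the libraries, and depth, which was lower at 6 h, moved with them; its part was not tested.

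Of 13783 genes tested, 0 differed between 11 h and 6 h at an adjusted p under 0.05 (limma with Benjamini-Hochberg adjustment, all 24 libraries in the fit), which is 0% of the genes tested. Limma-voom, a count-weighted form of the test applied to the recovered reads, also called 0. Without adjustment, 1111 genes had a p under 0.05 by limma and 1003 by limma-voom, where an even spread of p-values would put 689. Without replicate 5 at 6 h, 0 genes passed by either form, and the unadjusted counts were 745 by limma and 881 by limma-voom. The count of 745 comes from a fit that keeps the shallow libraries at 8 h: it was 1057 when only the 11 h and 6 h libraries without replicate 5 were fitted, against 1245 with it, and 1114 when all 3 libraries under 1000000 reads were left out. Without replicate 1 at 6 h, the only library of that time in the lower number range, 1 gene passed (ENSGALG00010019285, described with the named genes).

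**Figure D2:**
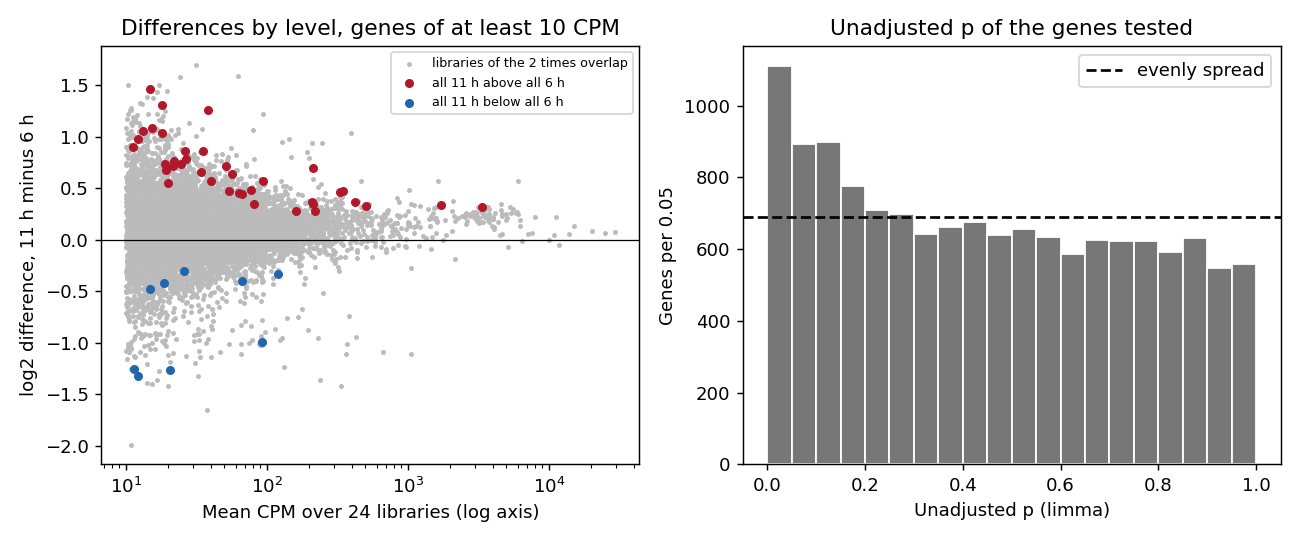
Left, the log2 difference (11 h minus 6 h) against mean CPM on a log axis for the 7209 genes of at least 10 CPM; red points are the 38 genes with every 11 h library above every 6 h library and blue points the 9 with every 11 h library below. Right, the number of the 13783 genes tested in each 0.05-wide interval of the unadjusted p (limma), with 1111 in the lowest interval; the dashed line marks the 689 of an even spread.

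Higher levels at 11 h made up 703 of the 1111 genes at an unadjusted p under 0.05 and lower levels 408, but this balance depended on the scaling. The differences are on the log2(CPM + 1) scale after division by TMM factors, which correct each library for a trimmed mean of its differences from a common library. The factors averaged 0.957 ± 0.0321 at 11 h and 1.04 ± 0.103 at 6 h (SD over 6 libraries each; exact permutation test, two-sided, p = 0.0736). With them the median difference over the genes of at least 10 CPM was 0.11, and without them it was 0.0038. Using library size only, 404 genes were higher and 562 lower at 11 h. With median-ratio size factors 471 were higher and 531 lower.

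The share of genes with a small p-value was largest within the class of abundant transcripts, where the standard errors (SE) were also the smallest. The median SE was 0.148 log2 units at 100 CPM or more, 0.276 from 10 to 100 CPM and 0.523 under 10 CPM. Of 1210 genes averaging 100 CPM or more, 12.8% had an unadjusted p under 0.05, with 136 higher and 19 lower at 11 h. With library size only the share was 8.84%, with 65 higher and 42 lower. Of 5999 genes from 10 to 100 CPM the share was 8.47% after TMM scaling and 7.05% with library size only. Among the 6574 genes under 10 CPM it was 6.81% and 6.63%. In this weakly expressed class lower levels at 11 h were the more frequent, 242 against 206 after TMM scaling and 286 against 150 with library size only.

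Differences at an unadjusted p under 0.05 were mostly of moderate size, a size partly set by the cut on p itself. The median SE over the genes of at least 10 CPM was 0.254 log2 units, so small differences seldom pass that cut. Among the genes of at least 10 CPM, 497 were higher at 11 h, with a median log2 difference of 0.54 and a largest of 1.70. The 166 lower ones had a median of -0.91 and a lowest value of -1.99. More than 2-fold differences were found in 60 of the higher and 53 of the lower genes. Since none of these genes passed the adjusted threshold, the lists describe where the smallest p-values lie and are not lists of changed genes.

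For 38 genes of at least 10 CPM every library at 11 h lay above every library at 6 h, which is 0.527% of the 7209. Overlap was judged on the log2 level after TMM scaling, and was not counted under the other scalings. For 9 genes every library at 11 h lay below, or 0.125%. The 38 had log2 differences of 0.28 to 1.46 and mean levels of 11.2 to 3352 CPM. In the 9 the differences were -1.32 to -0.30 and the mean levels 11.4 to 119.5 CPM. Without replicate 5 at 6 h there were 47 genes above and 18 below, together 0.902% of the 7209 against 0.652% with it. Leaving out a library can only keep or raise these counts, so the rise says nothing about that library. Among the 38, the library at 6 h nearest to the 11 h libraries was replicate 1, the one in the lower number range, for 16 genes, replicate 4 for 9, replicate 6 for 6, replicate 5 for 4, replicate 3 for 2 and replicate 2 for 1. Among the 9, it was replicate 2 for 3 genes and replicates 1, 5 and 6 for 2 each. Replicates 1 and 4 were also the deepest at 6 h, with 6566495 and 5624826 reads.

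The genes named are the 2 with higher and the 2 with lower levels at 11 h that had the smallest p among those of at least 10 CPM. They were chosen for this difference, so their values are a description. Their functions are not given, since the identifiers could not be paired with names.

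ENSGALG00010019285 had the smallest p of all genes tested. Its lowest, median and highest levels were 43.4, 52.8 and 72.6 CPM at 11 h, against 18.9, 22.6 and 36.6 CPM at 6 h. All 6 libraries at 11 h lay above all 6 at 6 h. The mean CPM was 55.8 ± 11.7 at 11 h against 24.7 ± 6.52 at 6 h (SD over 6 libraries each), resting on 1692 and 554 reads. The gene was 2.40-fold higher at 11 h by the limma estimate, 1.26 ± 0.24 on the log2 scale (SE; 95% interval 0.78 to 1.74; adjusted p = 0.11). Without replicate 5 at 6 h the mean there was 25.6 ± 6.83 CPM (SD, n = 5) and the log2 difference 1.16 ± 0.24 (SE, adjusted p = 0.508, limma), and without replicate 1 it was 1.39 ± 0.24 (SE, adjusted p = 0.0366, limma). Replicate 1 was the highest library at 6 h, at 36.6 CPM, and the only one of that time in the lower number range. Without it, incubation time and number range are wholly confounded between 11 h and 6 h. A fit that includes the range of library numbers gave 0.62 ± 0.33 (SE, adjusted p = 1, limma).

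ENSGALG00010013170 had 12.6, 15.9 and 35.9 CPM at 11 h as its lowest, median and highest levels, against 2.67, 7.70 and 11.4 CPM at 6 h. These levels rest on 597 reads at 11 h and 178 at 6 h. The groups did not overlap, but replicate 1 at 6 h (11.4 CPM) and replicate 1 at 11 h (12.6 CPM) lay close together. Replicates 4 and 5 at 11 h stood above the rest of their group, at 35.9 and 31.3 CPM. The gene averaged 20.9 ± 10.03 CPM at 11 h and 7.53 ± 3.43 at 6 h (SD over 6 libraries each), and was 2.75-fold higher at 11 h by the limma estimate, 1.46 ± 0.33 on the log2 scale (SE; adjusted p = 0.556). The lowest library, replicate 5 at 6 h, rests on 2 reads. Leaving it out gave 1.20 ± 0.30 log2 units (SE, adjusted p = 0.89, limma), and with the range term 0.88 ± 0.48 (SE, adjusted p = 1, limma).

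ENSGALG00010019272 was the first of the lower genes. Its lowest, median and highest levels were 46.7, 55.9 and 110.8 CPM at 11 h, against 93.6, 153.3 and 390.4 CPM at 6 h. The groups overlapped: replicates 1 and 5 at 11 h, at 107.7 and 110.8 CPM, lay above replicate 6 at 6 h, at 93.6 CPM. In CPM, replicate 5 at 11 h also lay above replicate 4 at 6 h, at 108.6 CPM, but not after TMM scaling. The highest level at 6 h, 390.4 CPM, was that of replicate 5, the shallowest library. The mean CPM was 70.6 ± 30.5 at 11 h against 194.6 ± 116.6 at 6 h (SD over 6 libraries each). The level at 11 h was 42.4% of that at 6 h by the limma estimate, -1.24 ± 0.33 on the log2 scale (SE; adjusted p = 0.556). Without replicate 5 the mean at 6 h was 155.4 ± 74.1 CPM (SD, n = 5) and the log2 difference -1.05 ± 0.33 (SE, adjusted p = 0.89, limma). With the range of library numbers as a term the log2 difference was -1.02 ± 0.49 (SE), and within the lower range alone it was -0.71.

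ENSGALG00010000776 ranged over 27.9, 53.9 and 76.4 CPM at 11 h (lowest, median and highest), against 64.8, 111.7 and 176.5 CPM at 6 h. Replicates 1 and 5 at 11 h, at 73.1 and 76.4 CPM, overlapped with replicates 1 and 6 at 6 h, at 71.0 and 64.8 CPM. Replicate 5 at 6 h again held the highest level. The gene averaged 53.3 ± 19.98 CPM at 11 h and 115.0 ± 47.4 at 6 h (SD over 6 libraries each), and its level at 11 h was 51.0% of that at 6 h by the limma estimate, -0.97 ± 0.26 on the log2 scale (SE; adjusted p = 0.556). Without replicate 5 the difference was -0.87 ± 0.27 (SE, adjusted p = 0.89, limma). With the range term it was -0.70 ± 0.39 (SE). In the single 6 h library of the lower number range it was smaller still: all 6 libraries at 11 h against replicate 1 at 6 h gave -0.44 ± 0.45 (SE, adjusted p = 1, limma), with the lone library assumed to vary like the others of that range.

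**Figure D3:**
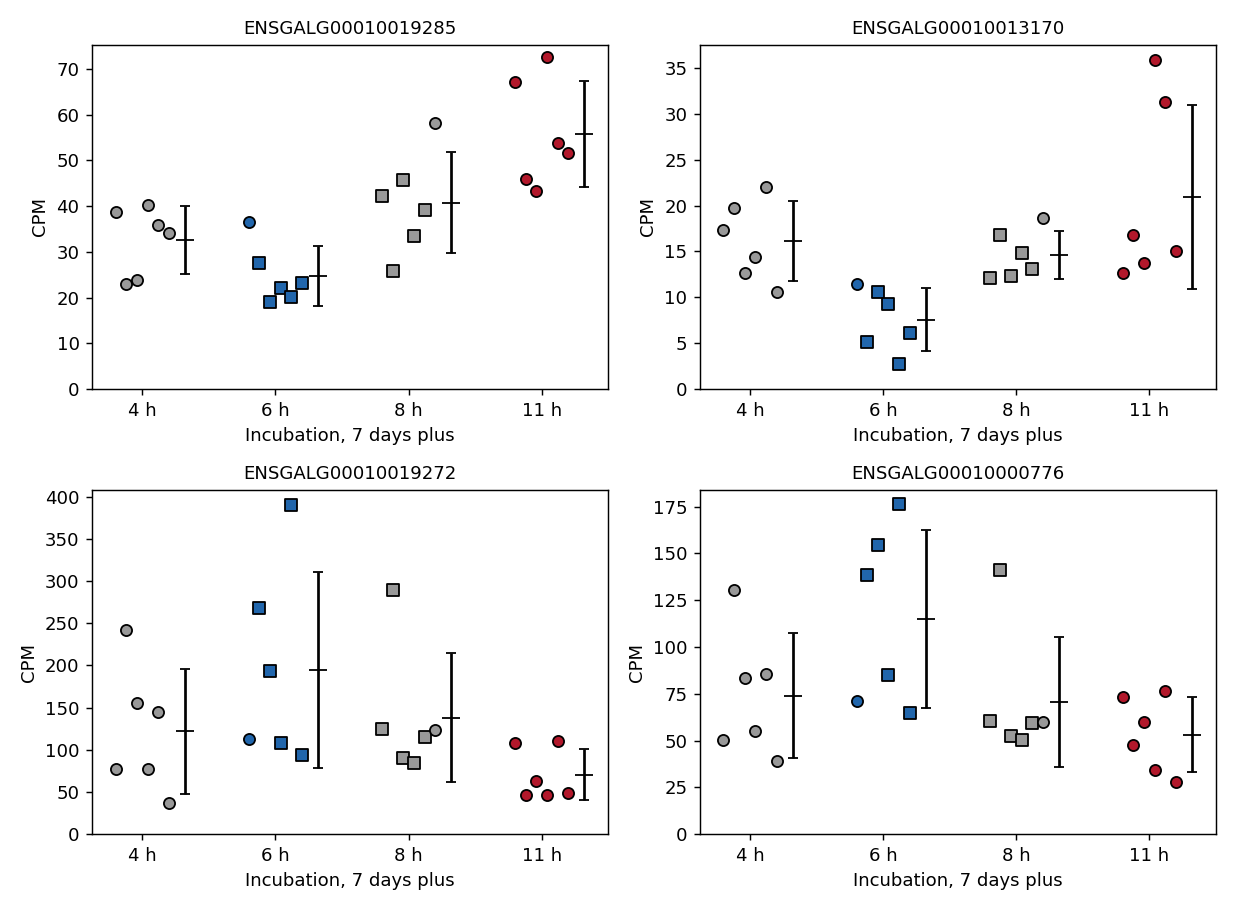
CPM of the 4 named genes in each library by incubation time (7 days plus 4, 6, 8 and 11 h); circles are libraries of the lower and squares of the upper number range, and bars give the mean and SD of 6 libraries. The 11 h points (red) lie above the 6 h points (blue) in both upper panels, while the points overlap in both lower panels.

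The levels at the other times are given for the same 4 genes, whose choice by the difference between 11 h and 6 h favours these times as the extremes. From 4 h through 6 h and 8 h to 11 h, ENSGALG00010019285 averaged 32.6 ± 7.49, 24.7 ± 6.52, 40.7 ± 11.04 and 55.8 ± 11.7 CPM (SD, 6 libraries a time). For ENSGALG00010013170 the means were 16.1 ± 4.35, 7.53 ± 3.43, 14.6 ± 2.66 and 20.9 ± 10.03 CPM in the same order. ENSGALG00010019272 averaged 122.0 ± 73.8, 194.6 ± 116.6, 138.2 ± 76.1 and 70.6 ± 30.5 CPM, and ENSGALG00010000776 averaged 74.1 ± 33.3, 115.0 ± 47.4, 70.6 ± 34.7 and 53.3 ± 19.98 CPM. In each of the 4 genes, the levels at 4 h and at 8 h lay between those at 6 h and 11 h.

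The libraries at 8 h and 4 h do not enter the difference between 11 h and 6 h, and their library numbers run the other way: mostly upper at 8 h and all lower at 4 h. They do enter the estimate of spread behind each p and the mean CPM. The choice of genes was therefore not independent of them. Both lists depend on the TMM scaling. The 497 genes higher at 11 h had a median log2 difference (8 h minus 4 h) of -0.026, and 46.3% of them were higher at 8 h. For the 166 lower genes the median was -0.018, and 47.6% were higher at 8 h. Over all 7209 genes the median was -0.074, and 40.2% were higher at 8 h. Across genes, the differences 11 h minus 6 h and 8 h minus 4 h had a Pearson correlation of 0.0285 (7209 genes, which are not independent replicates, scaled with the same factors). These values do not separate incubation time from library number.

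**Figure D4:**
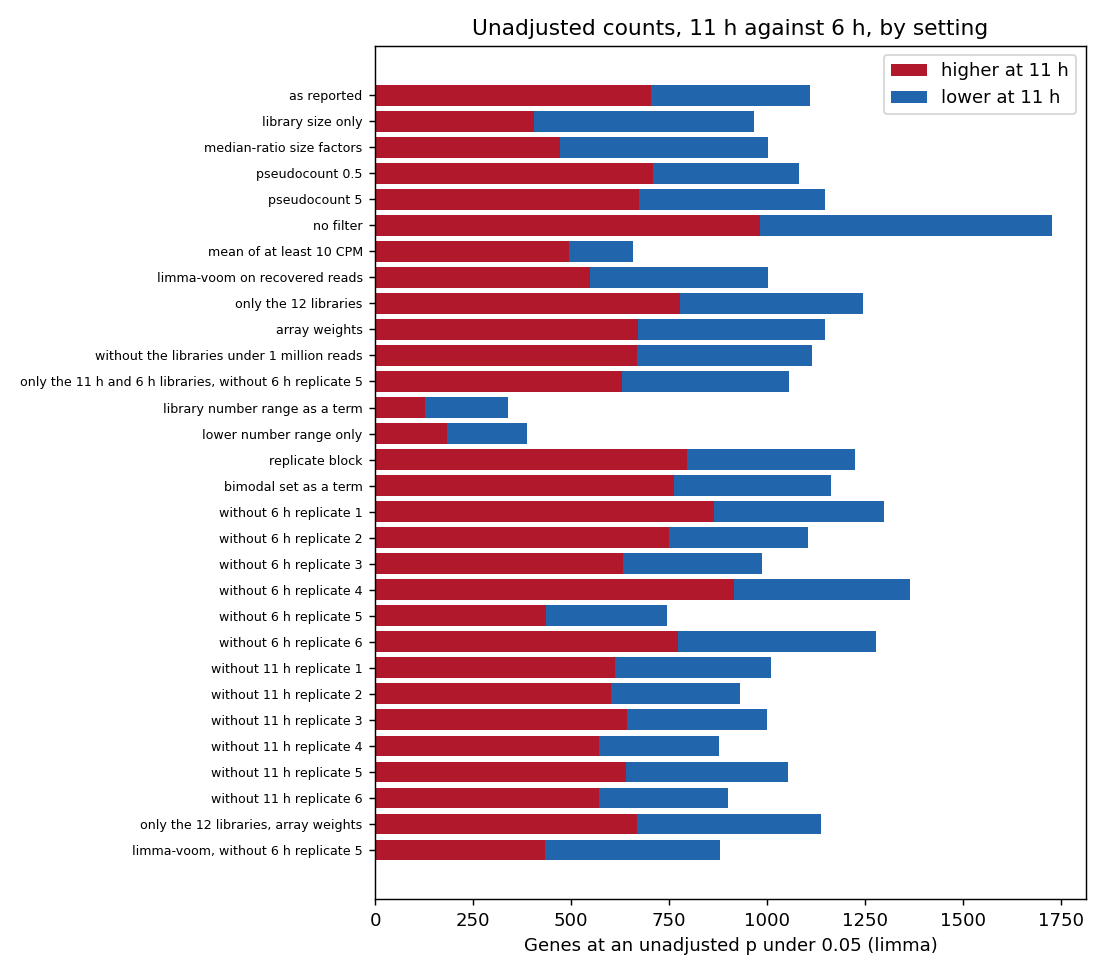
Number of genes at an unadjusted p under 0.05 (limma) for 11 h against 6 h under each setting, divided into higher (red) and lower (blue) at 11 h. The count is 1111 as reported, 745 without replicate 5 at 6 h, 1057 without it when only the 2 times are fitted and 1114 without all 3 shallow libraries. With the number range as a term it is 338, below the 689 of an even spread. The errors are larger in both settings with library number.

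Library number was also entered directly. With the number range as a term in the fit of all 24 libraries, 0 genes passed (limma) and 338 had an unadjusted p under 0.05, or 2.45% of the genes tested. An even spread of p-values would put 689 there, and larger errors alone would not bring a count below that. The median log2 difference over the genes of at least 10 CPM was 0.113 as reported and 0.0208 with the term. Within the lower range alone, with 6 libraries at 11 h and 1 at 6 h, it was 0.0133. The median SE over the genes of at least 10 CPM was 0.254 log2 units as reported, 0.382 with the term, which rests on 1 library at 6 h and 1 at 8 h, and 0.388 within the lower range. Why the count with the term lies below an even spread was not tested. The count does not show whether library number accounts for the differences.

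The intervals of the differences bound what these libraries could leave unseen. Among the 7209 genes of at least 10 CPM, 5456 genes (75.7%) had a 95% interval inside 2-fold either way and 2191 (30.4%) inside 1.5-fold. Of the 1210 genes of at least 100 CPM, 97.7% were bounded within 2-fold and 79.1% within 1.5-fold. Of the 6574 genes under 10 CPM, 7.54% were bounded within 2-fold, on a scale that compresses their changes. Without replicate 5 at 6 h, 5564 of the 7209 genes were bounded within 2-fold. Each interval holds for its own gene and bounds incubation time and library number together.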

How the data were processed

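The deposited table holds 30108 Ensembl identifiers and 1 column per library, matched to samples by the library name in the labels. The values deposited by the authors are on a natural log scale, ln(CPM + 1), since exp(value) - 1 sums to 1000000 in each column. Of tools, BWA 0.7.17-r1188, fastp 0.21.0 and Salmon are listed in the submitters' processing notes; what each did, and with which annotation and genome build, is not given in the sources used here. Recovered CPM were whole multiples of 1 read: of 406811 values above 0, all but 2 were whole within 0.01 read, which gave each library's depth.

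CPM were divided by TMM factors (trimming 30% of M and 5% of A), and log2(CPM + 1) was tested with limma 3.58.1 in R 4.3.3, with an intensity trend, 4 time groups, all 24 libraries and Benjamini-Hochberg adjustment. The pseudocount understates the change of weakly expressed genes. Genes were tested with at least 2.26 CPM (10 reads at the median depth) in 6 libraries and at least 15 reads in sum. This set of genes was kept in every alternative but the filters. The procedure was tested on simulated data. Named genes were the 2 higher and 2 lower with the smallest p at a mean of at least 10 CPM; 0 of the identifiers matched the 25635 genes of the reference table. The comparison, lists and alternatives were chosen with earlier results of these data known. No 2 libraries of a group were copies (chi-square per degree of freedom at least 8.30).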

Additional observations from a re-analysis of the deposited data

Results flagged for a closer look

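For 22 groups of 6 values (depth, genes detected, scaling factors, shares of abundant transcripts, the first principal component and the 4 named genes at 11 h and at 6 h), the gap between an extreme library and its neighbour was compared with the range; 2 stood out, where chance gives about 1 in 20. Replicate 5 at 6 h lay at -73.1 on the first principal component, against -3.61 to 8.75 in the other 5 libraries at 6 h. This library holds 747982 reads and has the largest TMM factor of the 12, 1.22. Without it the unadjusted count of genes was 745 in place of 1111 in the fit of all times, and 1057 in place of 1245 in the fit of 11 h and 6 h alone. In replicate 4 at 11 h the 10 most abundant transcripts took 17.1% of the reads, against 14.6% to 15.5% in the other libraries at 11 h.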

How the results depend on the processing

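The count of 0 genes past the threshold was obtained under 27 of 29 alternatives for 11 h against 6 h (limma); leaving out each of the 12 libraries in turn gave 0 to 1 genes, the 1 without replicate 1 at 6 h, and unadjusted counts of 745 to 1364. With the replicate number as a block 1 gene passed, ENSGALG00010019285 (adjusted p = 0.0419, limma). The numbers are not shown to pair the libraries: 2 of 6 same-numbered pairs had deviations from the group means that correlated above 0.1, and 1 of 6 libraries at 11 h correlated best with the 6 h library of its own number. The 4 named genes kept their sign in all 29 alternatives each, with log2 differences of 0.62 to 1.39 (ENSGALG00010019285, past the threshold in 2), 0.76 to 1.60 (ENSGALG00010013170, in 0), -1.39 to -0.71 (ENSGALG00010019272, in 0) and -1.09 to -0.44 (ENSGALG00010000776, in 0), the smallest differences in size coming with the number range as a term or within the lower range. These 4 genes were chosen for the difference itself, and the alternatives refit the same libraries. Their kept sign is therefore a description and not an independent check. The difference in depth was 1275000 to 2439000 reads with 1 library left out, and past the threshold without replicate 1 at 6 h (exact permutation test, p = 0.0368). The difference in genes detected, 1010 more at 11 h, was -147 at the common depth; fewer reads at 6 h entered the first value. Without a filter, 1727 of 27183 genes had an unadjusted p under 0.05. Array weights on the 12 libraries, limma-voom without replicate 5 and the interval counts under other settings were chosen after seeing the data. The gene lists were not evaluated, since identifiers could not be paired with names. For the other values the cause was not tested.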
